A study of Mus musculus with 8 samples.

Results

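The genes of the Maf family of basic leucine zipper transcription factors were examined for open chromatin in the mouse lens. The members are 3 large Maf genes, Maf, Mafa and Nrl, and 3 small Maf genes, Maff, Mafg and Mafk, 6 of 21000 protein-coding genes in the RefSeq annotation of GRCm38. For each gene, every peak was taken that overlapped by at least 1 bp the gene body or the 50 kb on either side. These windows held 149 of 100003 peaks of epithelium and 199 of 123743 of fibers at E14.5, and 90 of 58592 of epithelium and 149 of 62995 of fibers at P0.5.

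Maf proteins bind DNA as dimers through a basic region and a leucine zipper. Large Maf proteins carry an activation domain, and Maf itself (c-Maf) is needed for primary lens fiber cells to elongate and to express crystallin genes, Mafa is known from the insulin gene of pancreatic beta cells and from the lens, and Nrl directs the rod photoreceptor fate in the retina. Small Maf proteins lack an activation domain and act mainly in dimers with the cap'n'collar proteins, such as Nrf2 (encoded by Nfe2l2), and with Bach proteins, at antioxidant response and Maf recognition elements.

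ATAC-seq marks accessible DNA by the insertions of the Tn5 transposase. Lenses of CD1 mice, with no mutation or treatment named, were micro-dissected at an embryonic (E14.5) and a newborn stage (P0.5) into epithelium, the anterior sheet of dividing cells, and fibers, the elongated cells of the lens mass, with several lenses pooled for a library. There were 8 libraries, 2 for each of the 4 groups, and the reads of both were pooled before peaks were called, so that the 4 lists carry no replicate error and no difference below was tested. Where 4 values are given in a row with no names, they belong to epithelium and then fibers of E14.5, followed by epithelium and then fibers of P0.5. The lists do not give the depth behind a peak, an uncalled region can still be accessible, and in dissected tissue fewer accessible cells and less accessibility per cell cannot be told apart.

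Peak height was read as MACS2 fold enrichment at the summit and placed by its rank within its own list, where a rank of 1% means that a peak stood at the upper 1% of that list. Fold enrichment was not compared between lists. Each list as a whole holds few different values of fold enrichment, 371, 506, 169 and 102, so that many peaks have the same rank. The lists also differed in median peak width, at 226, 298, 209 and 185 bp. The dissection was visible at fiber genes: the promoter peaks of 5 of the 6 fiber markers (Mip, Lim2, Crybb1, Bfsp1 and Bfsp2) had a median rank of 2.12% in fibers against 10.4% in epithelium at E14.5, and 3.82% against 20.5% at P0.5. The sixth, Dnase2b, had no promoter peak in any list. The epithelial markers Foxe3, Cdh1 and Pdgfra had a promoter peak in all 4 lists, with medians of 6.84%, 7.48%, 10.8% and 10.3%. Of the 4 endothelial markers, 3, 4, 3 and 2 had one, with medians of 16.8%, 18.1%, 33.9% and 30.6%, and of the macrophage markers Csf1r and Cx3cr1 only Csf1r had one, at 40.6%, 49.3% and 52.3%, and none in P0.5 fibers. The part of such cells in the values below was not tested.

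A peak within 2 kb of a curated transcription start site, here called a promoter peak, was present at all 6 Maf genes in P0.5 fibers and at 5 of them in each of the other 3 lists. Among all protein-coding genes the share with such a peak was 70.3%, 71.2%, 67.0% and 64.6%, so the presence of a peak is common and says little about the members. The median rank of the members' highest promoter peaks was 4.21%, 2.81%, 8.34% and 9.46%, against medians of 7.68%, 6.10%, 12.8% and 10.3% over all genes with a promoter peak. The members' medians are over 5, 5, 5 and 6 genes, since Nrl, at 69.2%, enters in P0.5 fibers only, so the last is not over the same set. Mafa had the highest-ranked promoter of the family in every list, and Nrl was at the other end, with no promoter peak in 3 lists and a weak one in P0.5 fibers. With the start sites of all RefSeq transcripts, predicted ones included, all 6 genes had a promoter peak in every list.

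**Figure D1:**
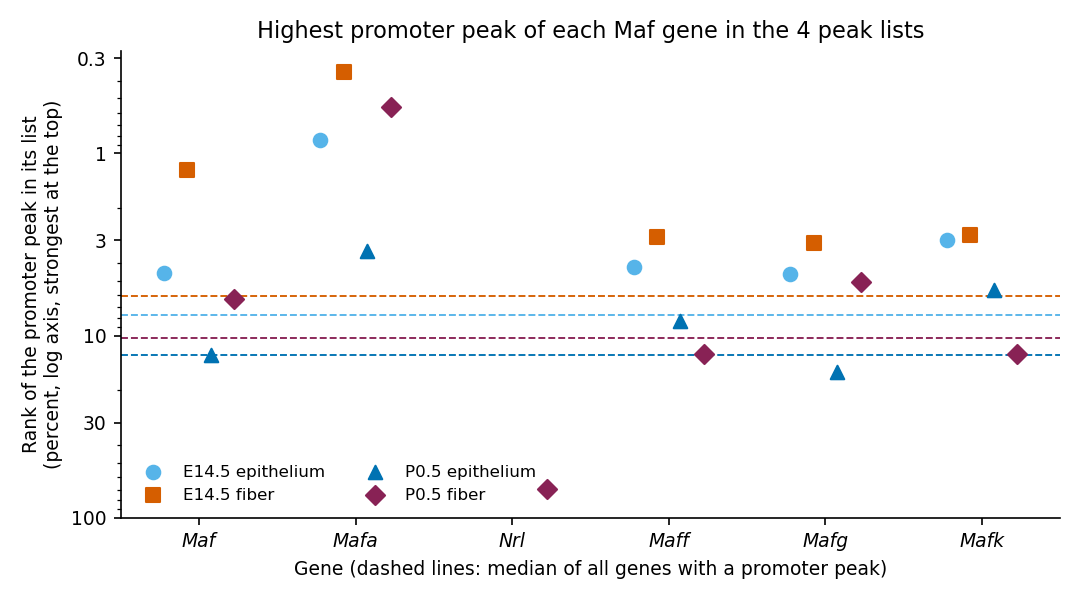
Rank of the highest promoter peak of each Maf gene within each of the 4 peak lists, in percent on a log axis with the strongest at the top; symbols are lists, dashed lines the median of all genes with a promoter peak in the list of that color. Mafa stands above the other members in every list (0.841%, 0.356%, 3.44% and 0.557%), and Nrl has a point in P0.5 fibers only, at 69.2%.

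Among the large Maf genes, Maf (chr8:115703253-115706894, minus strand) lies in a window with no other protein-coding gene. Its promoter peak had a fold enrichment of 46.8 in epithelium and 87.2 in fibers at E14.5, and of 16.1 and 10.7 at P0.5, which are ranks of 4.52%, 1.24%, 12.8% and 6.31%. Thus the promoter ranked higher in fibers than in epithelium at both stages, although the P0.5 ranks were close once only q-values under 0.001 were kept, at 12.9% in fibers and 14.7% in epithelium. The summit lay on the same base, 1057 bp before the start site, in both E14.5 lists and 1018 bp before it in P0.5 epithelium, whereas in P0.5 fibers the highest promoter peak had its summit 366 bp before the start. The P0.5 fiber list also held a peak that covered the upstream position, with its summit 1.02 kb before the start and a rank of 11.4%.

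Around the Maf promoter the E14.5 fiber list differed from the other 3. The window held 38 peaks in that list against 8 in E14.5 epithelium and 6 in each P0.5 list, and peaks covered 4.01%, 21.4%, 1.92% and 2.75% of its bases. Over all genes the median coverage of such windows was 2.45%, 3.68%, 1.45% and 1.21%. The ratio of E14.5 fiber to E14.5 epithelium coverage was 5.34 at Maf, with a median of 1.42 over 18122 genes, and 99.3% of those genes had a lower ratio. The corresponding ratio at P0.5 was 1.43, with a median of 0.922 and 84.5% of genes at a lower ratio, and the ratio of P0.5 to E14.5 fibers was 0.128 against a median of 0.357.

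**Figure D2:**
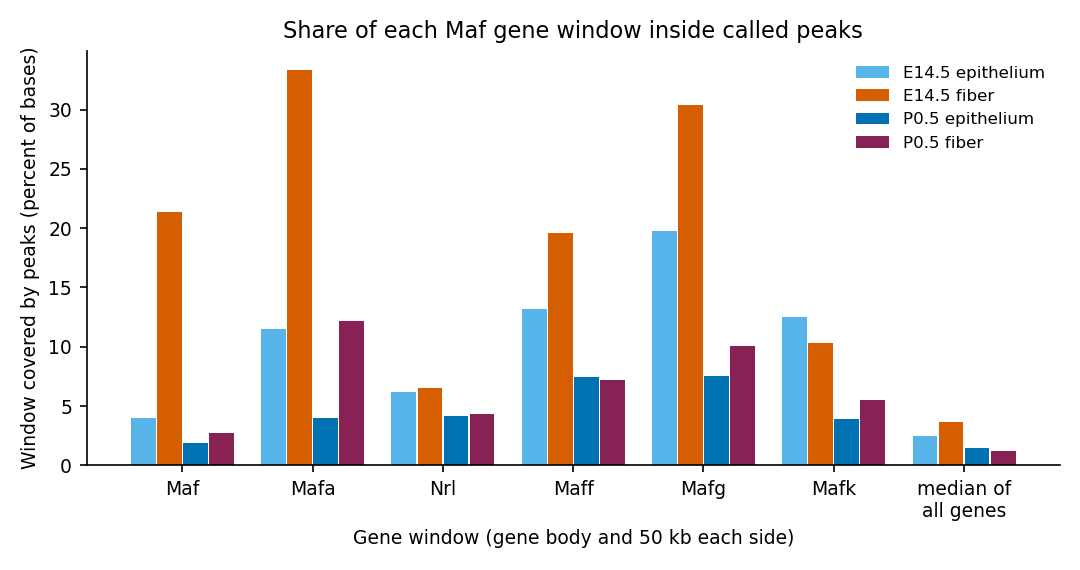
Percent of the bases of each gene window that lie inside called peaks, by list; the last group gives the median over the windows of all protein-coding genes. Maf, Mafa and Mafg reach 21.4%, 33.3% and 30.4% in E14.5 fibers, while Mafk is lower in E14.5 fibers (10.3%) than in E14.5 epithelium (12.5%).

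After the lists were merged at a distance of 10 bp, the Maf window held 38 regions called in at least 1 of the E14.5 lists. Of these, 31 (81.6%, 95% Wilson interval 66.6 to 90.8, counting error only) were called in fibers and not in epithelium, and 0 the other way, a count whose Wilson interval reaches 9.18%. Over the whole genome the shares were 40.1% and 19.7%. With only the 58592 strongest peaks kept in each list, the Maf window still gave 9 of 12 regions (75.0%) in fibers alone, against 24.8% of all regions. Compared with P0.5 fibers, 35 of 40 regions (87.5%) were called only in E14.5 fibers, against 62.5% genome-wide, and 2 (5.0%) only in P0.5 fibers, against 17.6%. With equal numbers of peaks the first of these was 10 of 15 (66.7%) against 40.4%.

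Regions found in E14.5 fibers and in no other list were 30 of the 40 in the Maf window (75.0%), against 29.3% of all merged regions and 28.5% in the 6 windows together. Their ranks ran from 19.5% to 90.1% with a median of 58.1%, their widths from 131 to 1282 bp, and 23 of them lay downstream of the start site, as far as 41.0 kb. The highest-ranked was a 793 bp region 4.38 kb upstream of the start (chr8:115711080-115711872), at 19.5%. The broadest region of the window lay in the intergenic DNA downstream of the gene (chr8:115696092-115700264). It spanned 4173 bp in E14.5 fibers at a rank of 10.8%, but was called over 375 bp in E14.5 epithelium (32.1%), 94 bp in P0.5 epithelium (86.7%) and 140 bp in P0.5 fibers (69.2%). Thus it was present in all 4 lists and wide in 1. A single region, in an intron of the noncoding gene Gm30712 12.5 kb upstream, was called in both fiber lists and in neither epithelium list, with a rank of 71.6% at the earlier stage and 34.7% at the later.

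The Maf window also held 5 regions called in both tissues at E14.5 and in neither at P0.5, or 12.5% of its regions against 11.4% of all merged regions.

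**Figure D3:**
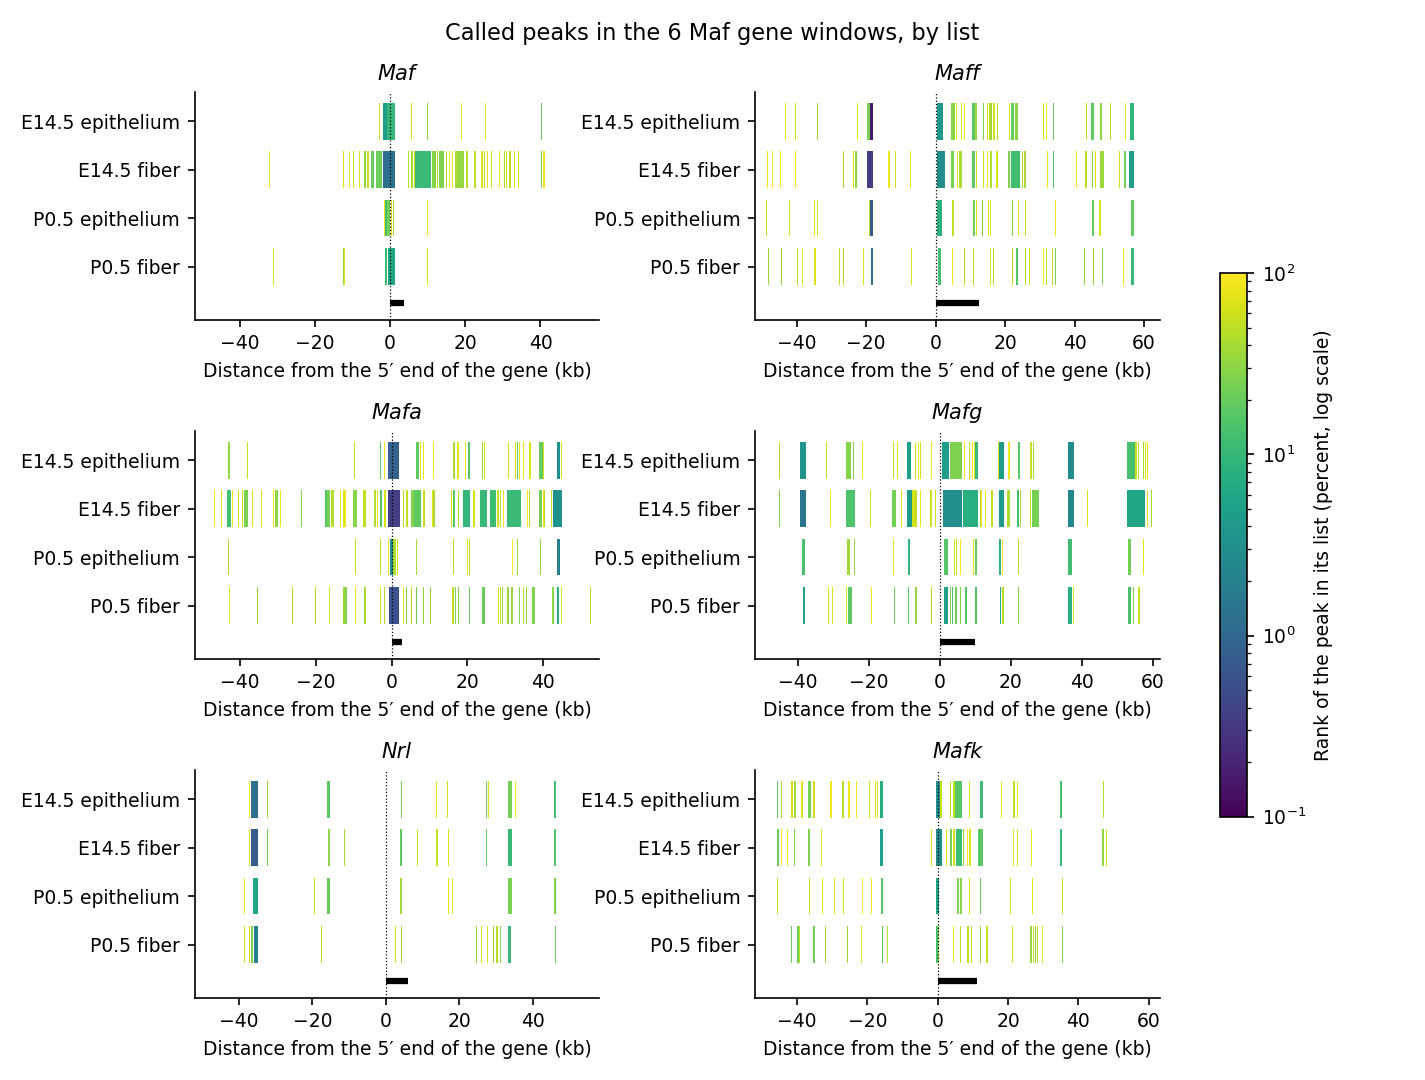
Called peaks in the 6 windows by distance from the 5′ end of each gene in kb, with 1 row for each list; each bar is a peak drawn to its width, colored by its rank within its list on a log scale, and the black bar is the gene body. In the Maf window the E14.5 fiber row holds 38 peaks where the other rows hold 8, 6 and 6, and in the Mafa window the fiber rows hold 52 and 41 where the epithelium rows hold 27 and 15.

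Mafa (chr15:75745501-75748321, minus strand) had the most accessible promoter of the family. Fold enrichment at its promoter peak was 87.8 in epithelium and 112 in fibers at E14.5, and 28.4 and 21.3 at P0.5, and the ranks were 0.841%, 0.356%, 3.44% and 0.557%. Only 3.23% of the genes with a promoter peak ranked above it in the E14.5 fiber list and 2.45% in that of P0.5, against 6.35% and 15.1% in E14.5 and P0.5 epithelium. The summit kept its place to within 4 bp, at 97, 97, 99 and 95 bp before the start site. The highest peak was 2789, 2984, 758 and 2596 bp wide, and the P0.5 epithelium list held 4 peaks over the same region where the other lists held 1.

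Unlike at Maf, the fiber lists held more peaks than the epithelium lists at both stages. The window, which also contains Rhpn1 and much of Zc3h3, held 27 and 52 peaks in E14.5 epithelium and fibers and 15 and 41 at P0.5, and coverage was 11.5% and 33.3% at E14.5 and 3.99% and 12.2% at P0.5. The ratio of fiber to epithelium coverage was 2.89 at E14.5 and 3.04 at P0.5, where the medians over all genes were 1.42 and 0.922. At P0.5, 24 of 34 regions (70.6%, Wilson interval 53.8 to 83.2) were called in fibers alone, against 39.6% genome-wide, and 1 (2.94%) in epithelium alone, against 35.2%. At E14.5 the counts were 33 of 53 (62.3%, interval 48.8 to 74.1) and 2 of 53 (3.77%), against 40.1% and 19.7%. With a q-value under 0.001 the P0.5 counts were 13 (56.5%) and 4 (17.4%) of 23, against 18.4% and 51.0% of all regions. With equal numbers of peaks the fiber shares were 71.4% at P0.5, against 37.2% of all regions, and 53.8% at E14.5, against 24.8%.

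A set of 12 regions in the Mafa window was called in both fiber lists and in neither epithelium list, out of 21 such regions in the 6 windows and 4507 (2.43%) of 185368 merged regions in all. Maff had 5, Mafk 2, and Maf and Mafg 1 each. Of the 12, 8 lay downstream of the start and 7 between genes, and their ranks ran from 24.3% to 97.7% at E14.5 and from 26.4% to 69.2% at P0.5, so none was among the strong peaks of either list. The TGCTGA element, the core that one Maf subunit contacts, occurred within 200 bp around the summit in 3 of them. One lay 5.19 kb and another 3.94 kb downstream of the start, between genes, with ranks of 27.2% and 53.3% in E14.5 fibers and 48.9% and 26.4% in P0.5 fibers. The third lay 16.4 kb upstream in an intron of Zc3h3, with ranks of 24.3% and 69.2%. Their sequences are shown because they are the only ones of the 12 that hold the element. TGCTGA or its reverse complement is in capitals here and in all sequences below (GRCm38, plus strand, chr15:75743031-75743230, chr15:75744279-75744478 and chr15:75764647-75764846).
Mafa, 5.19 kb downstream: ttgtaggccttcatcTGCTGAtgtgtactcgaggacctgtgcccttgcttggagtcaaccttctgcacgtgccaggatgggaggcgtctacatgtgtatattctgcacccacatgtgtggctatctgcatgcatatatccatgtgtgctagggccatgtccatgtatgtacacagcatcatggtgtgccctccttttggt
Mafa, 3.94 kb downstream: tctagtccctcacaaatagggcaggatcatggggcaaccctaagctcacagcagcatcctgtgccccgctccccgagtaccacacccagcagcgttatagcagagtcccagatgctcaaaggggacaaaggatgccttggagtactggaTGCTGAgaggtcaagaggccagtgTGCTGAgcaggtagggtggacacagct
Mafa, 16.4 kb upstream: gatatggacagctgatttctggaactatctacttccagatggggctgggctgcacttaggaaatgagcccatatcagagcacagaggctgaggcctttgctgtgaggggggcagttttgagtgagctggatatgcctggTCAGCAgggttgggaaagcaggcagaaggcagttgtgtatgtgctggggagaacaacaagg
The first and the third carry 1 element each and the second 2.

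Stronger distal regions of Mafa lay farther downstream of the start, in the DNA between Mafa and Rhpn1. The region at 20.5 kb (chr15:75727529-75729452) was called in all 4 lists, with ranks of 15.6%, 9.45%, 47.1% and 21.4%, and its highest peak was 1924 bp wide in E14.5 fibers against 157 to 488 bp in the other lists, of which both epithelium lists held 2 peaks there. That at 24.1 kb (chr15:75723024-75725027) was missing from P0.5 epithelium and ranked 33.9% in epithelium and 10.2% in fibers at E14.5 and 21.4% in fibers at P0.5. The region at 26.5 kb (chr15:75720704-75722293) was called in E14.5 fibers alone, over 1590 bp and at a rank of 11.5%, the highest of the 81 regions of the 6 windows found in that list only. It holds 3 TGCTGA elements in the 200 bases around its summit (plus strand, chr15:75721760-75721959), of which the last 2 are separated by 4 bases.
Mafa, 26.5 kb downstream: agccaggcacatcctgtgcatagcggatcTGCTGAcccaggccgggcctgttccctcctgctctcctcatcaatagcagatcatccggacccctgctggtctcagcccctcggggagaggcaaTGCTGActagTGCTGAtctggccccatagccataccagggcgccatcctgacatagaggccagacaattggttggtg
This region was chosen after the values were seen, as were the Mafg sites below. The only region of the Mafa window called in E14.5 epithelium alone ranked 68.5%.

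Nrl (chr14:55518978-55524981, minus strand), the retinal member, had a promoter peak in 1 list only. In P0.5 fibers a 120 bp peak lay within the 2 kb limit, with its summit 1878 bp after the nearer of 2 curated start sites, in a coding exon, a fold enrichment of 3.71 and a rank of 69.2%; 95.3% of the genes with a promoter peak ranked above it. With a limit of 1 kb no list held a promoter peak for Nrl, and with predicted transcripts included every list did. Inside the gene, a region over a coding exon 3.50 kb after the same start site (chr14:55520494-55521250) was called in all 4 lists at ranks of 25.3%, 18.5%, 36.4% and 34.7%. The highest peak of the window belonged to Dcaf11, with 1.17%, 0.718%, 6.14% and 2.09%. The window held 12, 12, 11 and 16 peaks and its coverage was 6.18%, 6.48%, 4.20% and 4.30%. The ratio of fiber to epithelium coverage was 1.05 at E14.5, where the median over all genes was 1.42 and 14.0% of genes had a lower ratio, and 1.02 at P0.5, against a median of 0.922.

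Among the small Maf genes, Maff (chr15:79346621-79359078, plus strand) had promoter peaks at fold enrichments of 48.7, 64.9, 20.4 and 7.42, and at ranks of 4.21%, 2.87%, 8.34% and 12.6%. The peaks spanned 1742, 2388, 1399 and 930 bp. Of the 4 curated start sites of Maff, the second and the third lay inside a peak in every list, the first in E14.5 epithelium only, and the fourth in every list except P0.5 fibers. The strongest peak of the window was not that of Maff but that of Pla2g6, 18.3 kb upstream, at 0.162%, 0.339%, 0.739% and 1.36%. Within Maff, a region over a coding exon (chr15:79357026-79357974) was called in all 4 lists at 16.8%, 17.1%, 21.5% and 48.9%.

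Of 49 regions called at E14.5, 20 (40.8%, interval 28.2 to 54.8) in the Maff window were in fibers alone and 7 (14.3%) in epithelium alone, against 40.1% and 19.7% genome-wide, and with equal numbers of peaks they were 6 each of 22 (27.3%), against 24.8% and 20.7% of all regions. At P0.5 the counts were 19 (46.3%) and 10 (24.4%) of 41 regions, against 39.6% and 35.2%, and with a q-value under 0.001 they were 5 (21.7%) and 12 (52.2%) of 23, against 18.4% and 51.0% of all regions. It held 2 of the 3 regions of the 6 windows that were called in both epithelium lists and in neither fiber list, a pattern that 2.28% of all merged regions had. They lay in an intron of Pla2g6 34.1 kb upstream (ranks of 35.9% at E14.5 and 66.3% at P0.5) and in an intron of Tmem184b 48.6 kb downstream (50.8% and 75.7%). The former holds a TGCTGA element, as does a region of both fiber lists in another intron of Pla2g6, 44.5 kb upstream, with a rank of 80.6% at the earlier stage and 34.7% at the later. The pair is shown to set an epithelium region beside a fiber region of the same gene (plus strand, chr15:79312386-79312585 and chr15:79302044-79302243).
Maff, 34.1 kb upstream, epithelium: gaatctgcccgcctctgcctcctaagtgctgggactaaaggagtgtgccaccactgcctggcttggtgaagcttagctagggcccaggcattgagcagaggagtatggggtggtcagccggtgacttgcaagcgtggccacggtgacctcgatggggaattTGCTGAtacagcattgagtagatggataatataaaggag
Maff, 44.5 kb upstream, fibers: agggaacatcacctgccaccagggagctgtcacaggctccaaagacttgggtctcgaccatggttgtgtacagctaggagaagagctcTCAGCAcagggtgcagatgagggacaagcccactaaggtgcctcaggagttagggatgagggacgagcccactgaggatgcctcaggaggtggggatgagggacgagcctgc
Each carries 1 element, on opposite strands.

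Mafg (chr11:120625117-120634955, minus strand) lies among 10 other protein-coding genes, and the coverage of its window was 19.8%, 30.4%, 7.57% and 10.1%. Promoters of other genes accounted for 19 of 36, 16 of 31, 11 of 17 and 15 of 28 of its peaks. The promoter peak of Mafg had fold enrichments of 46.4, 62.6, 14.0 and 11.6 and ranks of 4.58%, 3.09%, 15.8% and 5.11%. It was 5323 bp wide in E14.5 fibers, the widest peak of all 6 windows. The other lists held 2, 4 and 5 peaks over the same region, of which the highest were 1869, 1356 and 1192 bp wide. Of 34 regions at E14.5, 12 (35.3%) were called in fibers alone and 5 (14.7%) in epithelium alone, against 40.1% and 19.7% genome-wide, and at P0.5, of 17, 7 (41.2%) and 0, against 39.6% and 35.2%. The Wilson interval of the latter reaches 18.4%.

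The position of the Mafg summit differed between the tissues. It lay 73 and 15 bp before the start site in E14.5 and P0.5 epithelium, but 496 and 413 bp after it in E14.5 and P0.5 fibers, in the first intron of the curated transcript. The promoter peaks of both epithelium lists also covered the fiber summits, and the start site lay inside a peak in every list. Thus the intron was called in both tissues, and only the highest position within the peak differed. The 200 bases around the E14.5 fiber summit hold 3 TGCTGA elements, the most of any promoter region of the family, and 2 AP-1 sites (TGANTCA) that overlap them. Both sites are shown in 26 bases, centered 572 and 439 bp after the start (plus strand, chr11:120632962-120632987 and chr11:120633095-120633120). Predicted transcripts that start within this intron place exons there.
Mafg, first intron, 572 bp: cctcaTGCTGAtgacTCAGCAcgtct
Mafg, first intron, 439 bp: acctgatgagTCAGCAgctcggtgcg
In the first of them an element and its reverse complement are separated by 4 bases. That site also holds 1 antioxidant response element core (TGACNNNGC), which overlaps them. The E14.5 fiber summit lies between the site at 572 bp and the site at 439 bp and inside neither. A match is a description of the letters and does not show that a Maf protein was bound.

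Mafk (chr5:139791536-139802653, plus strand) had promoter peaks at fold enrichments of 58.3, 65.5, 24.2 and 7.42, with ranks of 3.0%, 2.81%, 5.61% and 12.6%. The summit lay 125, 126, 140 and 179 bp before the start site. Thus the rank was close in both tissues at E14.5 and lower in fibers than in epithelium at P0.5. The same order held at Maff at P0.5 (12.6% against 8.34%), whereas Maf, Mafa and Mafg ranked higher in fibers. The promoter holds 1 TGCTGA element and, apart from it, 1 antioxidant response element core (TGACNNNGC, either strand). It is shown as the 250 bases before the start site (RefSeq promoter table, GRCm38, plus strand, chr5:139791286-139791535).
Mafk promoter: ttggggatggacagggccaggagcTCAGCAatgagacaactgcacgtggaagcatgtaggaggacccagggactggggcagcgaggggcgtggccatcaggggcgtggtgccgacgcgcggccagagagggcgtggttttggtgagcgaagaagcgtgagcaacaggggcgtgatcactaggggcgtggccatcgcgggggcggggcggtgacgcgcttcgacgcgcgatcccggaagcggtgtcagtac

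Mafk was the one window with more regions in epithelium alone than in fibers alone at E14.5, the counts at Nrl being 3 each. Of 39 regions, 16 (41.0%, interval 27.1 to 56.6) were called in epithelium alone and 6 (15.4%, interval 7.25 to 29.7) in fibers alone, against 19.7% and 40.1% genome-wide. The ratio of fiber to epithelium coverage was 0.822, and 4.82% of genes had a lower one. The epithelium regions were weak: the 12 that no other list held had ranks from 55.5% to 87.9%, and 11 of them lay upstream of the start. With equal numbers of peaks the epithelium count was 4 of 15 (26.7%), against 20.7% of all regions, and the fiber count 2 of 15 (13.3%), against 24.8%. At P0.5, 20 of 36 regions (55.6%) were in fibers alone and 11 (30.6%) in epithelium alone, against 39.6% and 35.2% genome-wide. That order turned with a q-value under 0.001, to 7 of 20 (35.0%) and 9 (45.0%), against 18.4% and 51.0%.

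Inside Mafk, an intronic region (chr5:139796556-139798474) was called in all lists at ranks of 16.4%, 11.5%, 26.3% and 48.9% and its highest peak spanned 1897 and 1710 bp in E14.5 epithelium and fibers and 709 and 170 bp at P0.5, with 2 peaks there in P0.5 epithelium. Another region just past the gene, 12.3 kb after the start, ranked 11.3%, 17.5%, 20.5% and 34.7%. Of the regions of both fiber lists, the one 26.5 kb downstream, with ranks of 80.6% and 34.7%, holds a TGCTGA element (plus strand, chr5:139817950-139818149).
Mafk, 26.5 kb downstream: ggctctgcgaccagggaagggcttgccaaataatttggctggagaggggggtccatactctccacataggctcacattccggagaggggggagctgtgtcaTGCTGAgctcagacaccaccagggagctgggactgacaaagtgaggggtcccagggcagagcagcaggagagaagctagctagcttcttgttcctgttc

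**Figure D4:**
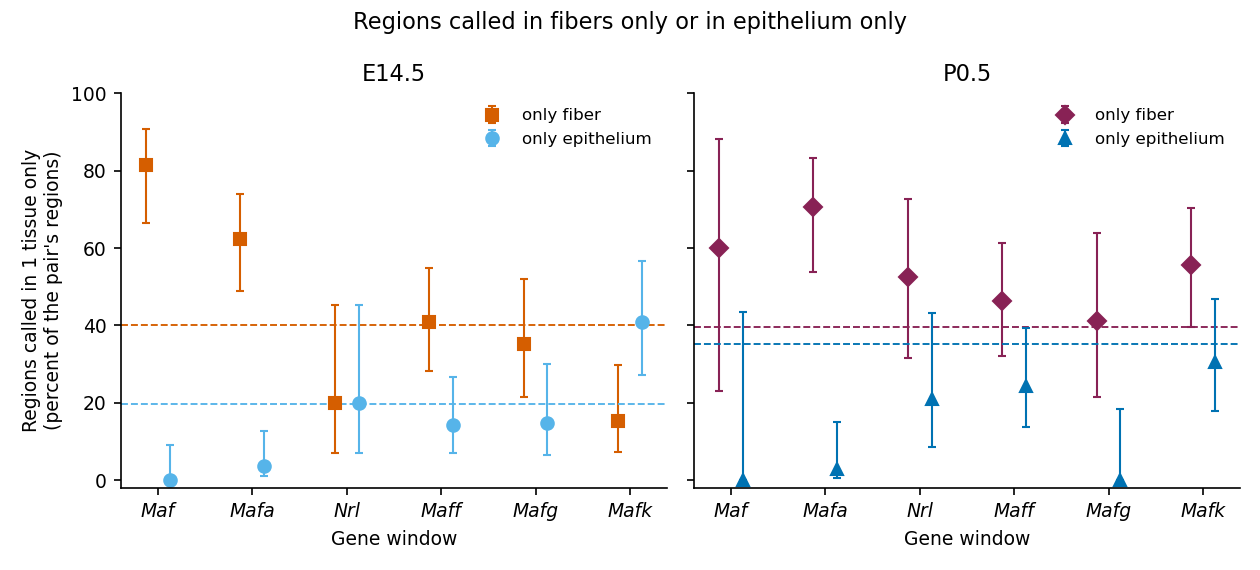
Percent of the merged regions of each window called in 1 tissue only, of those called in either tissue at that stage, with 95% Wilson intervals (counting error only); dashed lines are the shares over all merged regions of the series. At E14.5 the fiber share falls from 81.6% at Maf to 15.4% at Mafk, where the epithelium share is 41.0%; at P0.5 the fiber share is highest at Mafa (70.6%).

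Over the 6 windows together, 284 merged regions were found, of which 158 (55.6%) were called in 1 list and 39 (13.7%) in all 4, against 59.5% and 10.9% of the 185368 regions of the series. At E14.5, 105 of 228 regions (46.1%, interval 39.7 to 52.5) were called in fibers alone and 33 (interval 10.5% to 19.6%) in epithelium alone, against 40.1% and 19.7% of the genome. At P0.5 the counts were 83 of 152 (54.6%, interval 46.7 to 62.3) and 26 of 152 (17.1%, interval 11.9 to 23.9), against 39.6% and 35.2%. The epithelium share at P0.5 was thus below that of the genome, with 5 of the 6 windows at 24.4% or less and Mafk at 30.6%. With a q-value under 0.001 the counts were 32 (35.2%) in fibers alone and 29 (31.9%) in epithelium alone of 91, against 18.4% and 51.0% of all regions, and the epithelium share was 52.2% at Maff, 45.0% at Mafk and 36.4% at Nrl. Regions of 1 window share a locus and are not independent.

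Over the 6 windows, regions called at E14.5 alone outnumbered those called at P0.5 alone in both tissues, an order that turned when equal numbers of peaks were kept in each list. In epithelium, 70 of 139 regions (50.4%) were called at E14.5 alone, against 49.7% of all regions, and 16 (11.5%) at P0.5 alone, against 11.2%. In fibers, 121 of 247 (49.0%, interval 42.8 to 55.2) were called at E14.5 alone, against 62.5%, and 52 (21.1%) at P0.5 alone. With equal numbers of peaks, the counts were 15 at E14.5 alone and 20 at P0.5 alone in epithelium, against 27.0% and 22.4% of all regions, and 41 (25.5%) and 74 (46.0%) in fibers, against 40.4% and 33.0%. The members differed here: 87.5% of the regions of Maf were called in E14.5 fibers alone, but 28.6% of those of Nrl, 37.5% of Mafk and between 42.6% and 48.5% of Mafa, Maff and Mafg. With a q-value under 0.001 the share was 93.1% at Maf and 52.0% to 65.6% at the other members, against 74.3% of all regions. With equal numbers of peaks it was 66.7% at Maf and 15.6% to 28.3% at the other members, against 40.4%. Maf was highest each time, and the order of the other members changed. The regions gained in P0.5 fibers were 17 of 40 (42.5%) at Mafk and 9 of 21 (42.9%) at Nrl, against 17.6% genome-wide. With a q-value under 0.001 they were 7 of 23 (30.4%) and 3 of 15, against 6.70%, and fewer than the regions called at E14.5 alone in both windows.

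The TGCTGA element was searched for on both strands in the 200 bp around each summit. It was present in 35 of 149 (23.5%), 46 of 199 (23.1%), 21 of 90 (23.3%) and 33 of 149 (22.1%) window peaks, where the shares of all peaks were 21.0%, 24.7%, 18.8% and 18.9%. The windows of the Maf genes as a group therefore held it about as often as other peaks. Within the family it was most frequent at Mafa in the E14.5 lists (40.7% and 34.6%). In the P0.5 lists it was most frequent at Maf, though with few peaks, 4 of 6 in epithelium and 2 of 6 in fibers. At E14.5 the Maf counts were 3 of 8 in epithelium and 5 of 38 (13.2%) in fibers, where Nrl had 1 of 12. Of the 30 Maf regions found only in E14.5 fibers, 2 held it. The element followed by its reverse complement, with 1 or 2 bases between, was found in 0 window peaks of any list and in 54, 80, 23 and 23 peaks of the whole lists. The antioxidant response element core was found in 14.1%, 10.1%, 13.3% and 15.4% of window peaks against 11.9%, 12.3%, 11.3% and 11.5% of all, and the AP-1 site in 5.37%, 4.52%, 3.33% and 8.05% against 6.22%, 6.77%, 5.70% and 4.79%. The Sox site ACAATGG was present in 2.01%, 4.02%, 0% and 4.03% of window peaks against 3.42%, 3.69%, 3.03% and 2.45%, and the Tead site GGAATG in 8.05%, 9.55%, 8.89% and 6.71% against 15.8%, 12.5%, 15.5% and 10.3%.

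The 250 bases before the start site, taken from RefSeq for GRCm38, were matched for Nrl, Maff, Mafg and Mafk, with 3 of the starts of Maff. Maf and Mafa had no entry. The share of G and C was 67.2% for Mafk and 68.0% for Mafg, with 25 and 32 CpG dinucleotides, against medians of 52.4% and 6 over 32851 promoters. For the first start of Maff, which lay inside a peak in 1 list, the share was 48.0% with 4 CpG dinucleotides, and for the second and the fourth, which lay inside peaks in 4 and 3 lists, it was 64.0% and 60.4% with 18 and 13. That of Nrl had 47.2% and 2. The TGCTGA element was present before Mafk alone, and in 16.1% of all promoters. The antioxidant response element core was present before Mafk, Mafg and the first start of Maff, and in 10.2% of all promoters.

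The genes of the dimer partners of small Maf proteins and of their regulator Keap1 were examined in the same way. Of Nfe2, Nfe2l1, Nfe2l2, Nfe2l3, Bach1, Bach2 and Keap1, 6, 7, 6 and 6 of 7 had a promoter peak in the 4 lists, where the shares of all protein-coding genes were 70.3%, 71.2%, 67.0% and 64.6%. The highest ranked were Nfe2l1 (1.33%, 0.308%, 5.37% and 1.22%), which encodes Nrf1, and Bach1 (0.987%, 1.30%, 1.91% and 3.45%), which encodes a repressor. Nfe2l2 followed with 5.66%, 2.81%, 7.95% and 5.69%, and Keap1, which holds Nrf2 in the cytoplasm, with 7.68%, 5.60%, 15.1% and 8.49%. Bach2 had a promoter peak in E14.5 fibers only, at 45.8%.

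Among 12726 genes with a promoter peak in all lists, Nme1 and Atp6v0c were among the 3 whose promoter ranks were most like those of Maf. The largest difference in rank from Maf in any list was 1.18-fold for Nme1 and 1.22-fold for Atp6v0c. In all, 48 genes lay within 1.5-fold of Maf in every list.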

How the data were processed

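ATAC-seq of CD1 mouse lens was analysed from 4 peak lists, 1 for each tissue (epithelium or fibers) and stage (E14.5 or P0.5). Per the labels and the study's methods, the authors trimmed paired-end reads with Trim Galore 0.4.1, mapped them to mm10 (GRCm38) with Bowtie2 2.3.3.1, removed mitochondrial and duplicate reads with SAMtools 1.2 and Picard 2.1.1, joined both libraries of each group, and ran MACS2 2.1 on whole fragments at a q-value threshold of 0.05. The deposited columns used are the fold enrichment at the summit (a ratio to the local background), its −log10 p-value and −log10 q-value, and the summit position. The deposited score column was not used. No replicate values or depths are in the lists, so shares carry 95% Wilson intervals for counting error only.

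Peaks were ranked within each list by fold enrichment, ties sharing the best rank. Gene bodies with 50 kb each side, start sites of curated RefSeq transcripts (GRCm38.p6) and promoters of 2 kb each side were used, and lists were merged with bedtools 2.31.1 at 10 bp, the distance at which the authors merged peaks of single samples. Blacklisted regions were not removed. Motifs were searched in 200 bp around each summit with pysam 0.24.0. Merging and ranking were tested on simulated data. The members, gene lists and described regions were chosen with earlier results of these data known. Named were all members, the dimer partners, the genes with the highest-ranked promoter of a window, the 3 genes most like Maf, and in each window the highest-ranked region of each list outside promoters of other genes and regions of 1 tissue at both stages. Some named items are not reported here. Alternatives were a q-value under 0.001, equal numbers of peaks, other promoter and merge distances, all transcripts, ranking by p-value and other motif windows.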

Additional observations from a re-analysis of the deposited data

How the results depend on the processing

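No paired analysis was possible because each list pools both libraries of its group, and for the same reason no library could be left out. With all RefSeq transcripts, all 6 members had a promoter peak in every list, so that the lack of one at Nrl in 3 lists was lost. All 4 counts of members with a promoter peak, and every count over the 6 windows together under other merge distances, other promoter limits, all RefSeq transcripts or summits in place of overlaps, stayed within 1.5 times the value reported. With equal numbers of peaks in each list, the windows held 88 peaks in fibers and 74 in epithelium at E14.5. The regions called in E14.5 fibers and not in E14.5 epithelium then fell to 34, the reverse to 11, those of E14.5 epithelium not in P0.5 epithelium to 15 and those of E14.5 fibers not in P0.5 fibers to 41, since fewer E14.5 peaks enter by construction. Fibers alone and epithelium alone at E14.5 were then 34.7% and 11.2% of 98 regions, against 24.8% and 20.7% of all regions. Regions of P0.5 alone then outnumbered those of E14.5 alone, with 20 in epithelium and 74 in fibers, whereas genome-wide the E14.5 shares stayed the higher. With q under 0.001, which 48.9% of P0.5 fiber peaks pass, the windows held 74 peaks in P0.5 fibers, and the regions of P0.5 fibers not in P0.5 epithelium numbered 32 against 29 the other way, those of P0.5 fibers not in E14.5 fibers 22 and those of P0.5 epithelium not in E14.5 epithelium 10. The share of window peaks with the TGCTGA element ran from 10.1% to 14.1% in a window of 100 bp around the summit in place of 200 bp, and from 28.9% to 40.2% over whole peaks. Promoter ranks in P0.5 fibers rose in percent with a q-value under 0.001, to 12.9% at Maf, 1.14% at Mafa, 10.5% at Mafg and 25.8% at Maff and Mafk, and with equal numbers of peaks the E14.5 ranks did, to between 0.751% and 7.81%. The peak lists do not give depth, so an absent peak may be a matter of depth, and the differences between lists carry no replicate error.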
